A study of Mus musculus with 2 samples.

Results

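The AP-1 and immediate early genes described here are 10 genes, Fos, Fosb, Jun, Junb, Jund, Egr1, Egr2, Atf3, Ier2 and Socs3, taken by symbol from the 27998 genes listed in the tables, and all 10 had UMIs in both libraries. A UMI (unique molecular identifier) counts 1 captured mRNA molecule. The study compared back skin epithelium of embryonic day 17 mice with and without Mettl3, the catalytic subunit of the complex that writes N6-methyladenosine (m6A) on mRNA. The control genotype was Mettl3 fl/+, Rosa16-YFP fl/+, K14Cre and the conditional knockout (cKO) was Mettl3 fl/fl, Rosa16-YFP fl/+, K14Cre, both on C57BL/6. Both therefore carried K14Cre, which acts in Krt14-expressing epithelium, and the YFP reporter by which recombined cells were sorted, and the control kept 1 functional Mettl3 allele. Skin was dissociated with collagenase and then trypsin, and YFP+ cells were isolated by FACS after cells of other lineages had been gated out. The study gated them further by their surface integrins, to enrich progenitors, so all cell types below are those that passed this sort. From them 1 single-cell 3′ RNA-seq library was made per genotype. The number of embryos behind each library is not given in the sources used here. With 1 library per genotype no test between genotypes was possible, and the intervals below are exact 95% intervals that cover counting error only.

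Fos and Jun family proteins pair through leucine zippers to form AP-1, a DNA-binding dimer that activates proliferation, wound and differentiation genes in epidermis. Their genes, with Egr1, Egr2, Atf3 and Ier2, are immediate early genes: growth factors, stress and enzymatic dissociation of tissue switch them on within minutes through MAP kinases acting on factors already bound at their promoters, and their short-lived mRNAs disappear again quickly. Socs3 is an induced inhibitor of JAK-STAT signalling. Jund is the family member known for steady expression without stimulation.

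Cells were barcodes with at least 1800 genes, 4447 from control and 3577 from cKO skin with a median of 8941 and 8581 UMIs, and 16 barcodes occurred in both libraries. Cell types were set by gates on marker UMIs. The suprabasal gate held cells in which Krt1 and Krt10 summed to at least 2000 counts per 1000000 UMIs (CPM), 447 control and 337 cKO cells. The HF WNThi gate (hair follicle cells with high WNT signalling, at least 2 UMIs of Shh, Dkk4, Fgf20 and Wnt10b) held 273 and 316 cells, and the HF WNTlo gate (at least 3 UMIs of Sox9, Krt79 and Wif1) held 618 and 591. The basal gate took the cells outside these with Krt5, Krt14 and Krt15 at 7000 CPM or more, 2844 and 1796 cells. Genes that the gates did not use followed the labels to different degrees. Lef1 stood at 231 and 192 CPM in the HF WNThi gate against 36.4 and 25.9 CPM in the HF WNTlo gate, but at 152 and 118 CPM in basal cells. Between HF WNThi and basal cells Ctnnb1 differed more, at 1127 and 1079 against 430 and 409 CPM. Krt17 differed less between them, at 1525 and 1015 against 1020 and 929 CPM. Lhx2 stood at 134 to 178 CPM in the control follicle gates against 5.83 CPM in basal cells. Sbsn stood at 570 and 502 CPM in suprabasal against 44.6 and 56.5 CPM in basal cells. The leukocyte gene Ptprc had 0 UMIs in these gates except for 1 UMI in cKO HF WNTlo cells. It was among the markers by which other cell types were gated out, so it is no separate check. Near the cuts lay 167 and 323 basal or ungated cells (within 20% of the keratin minimum). Of all kept cells, whatever their gate, 45 and 36 lay within 20% of the suprabasal minimum on either side. At the HF WNThi minimum lay 90 and 81 kept cells, and 409 and 322 lay 1 UMI below it. At the HF WNTlo minimum lay 125 and 129, and 211 and 190 lay 1 UMI below it. No gate took 4.03% of control and 13.0% of cKO cells. The Mettl3 transcript itself had 12.7 CPM over all kept control cells and 6.18 CPM over those of the cKO (ratio 0.487), but the floxed exon lies outside the 3′ tags, so this level does not check the deletion.

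On GRCm38 the 10 genes lie on 8 chromosomes. Fos spans chr12:85473890-85477273 on the plus strand in 4 exons, and Jun spans chr4:95049034-95052222 on the minus strand as a single exon. Junb (chr8:84974484-84978718, minus), Jund (chr8:70698949-70700616, plus) and Ier2 (chr8:84661331-84662852, minus) share chromosome 8 and have 1 exon each in their principal transcript. Fosb (chr7:19302696-19310051, minus), Egr2 (chr10:67535475-67542188, plus), Atf3 (chr1:191170296-191218039, minus) and Socs3 (chr11:117966079-117970047, minus) are spliced, as is Egr1 on chromosome 18. Jun overlaps the antisense gene Junos, Jund the antisense gene Gm11175, Junb the gene Prdx2 on the other strand and Atf3 the small RNA gene Gm24748. Whether strand was used in counting is not given in the sources used here, so reads of these 4 genes cannot be told apart from those of their partners.

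Promoter windows of 250 bases before the RefSeq start (GRCm38.p6) were found for 8 of the 10 genes. For Jund that start lies 1210 bases from the GENCODE start of its principal transcript, so its window may not be the promoter of that transcript. For Socs3 the distance is 180 bases. The windows of Fosb, Atf3 and Socs3 overlap annotated exons. All 8 windows are kept in the counts below. The windows of Fos, Jun and Egr2 are printed as 1 gene of each family described below, the Fos, Jun and Egr genes, whose windows overlap no annotated exon. Capitals mark the matches of letters bound by factors that sit at such promoters: TGACGT, the core of the cAMP response element, in Fos, TGACATC, a variant AP-1 site, in Jun, and a CArG box, which SRF binds, followed by TGACGT read on the minus strand, in Egr2.

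Fos, chr12:85473640-85473889, plus strand: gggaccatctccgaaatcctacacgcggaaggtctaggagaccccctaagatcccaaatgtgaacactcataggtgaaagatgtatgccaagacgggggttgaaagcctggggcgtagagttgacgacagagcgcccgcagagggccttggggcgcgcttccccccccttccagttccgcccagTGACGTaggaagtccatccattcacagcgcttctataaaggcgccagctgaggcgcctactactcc
Jun, chr4:95052223-95052472, minus strand: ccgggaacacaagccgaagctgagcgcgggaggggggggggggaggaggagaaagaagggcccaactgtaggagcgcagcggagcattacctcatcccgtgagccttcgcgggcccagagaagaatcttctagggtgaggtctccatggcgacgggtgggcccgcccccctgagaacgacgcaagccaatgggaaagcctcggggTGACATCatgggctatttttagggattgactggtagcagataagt
Egr2, chr10:67537619-67537868, plus strand: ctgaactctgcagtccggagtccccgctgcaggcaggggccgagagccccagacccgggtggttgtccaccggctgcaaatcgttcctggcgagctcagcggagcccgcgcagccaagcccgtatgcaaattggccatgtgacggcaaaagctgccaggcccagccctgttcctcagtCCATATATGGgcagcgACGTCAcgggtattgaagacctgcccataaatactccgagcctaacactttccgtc

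The match in Fos lies 66 to 61 bases before the start. The match in Jun lies 45 to 39 bases before the start. In Egr2 the CArG box lies 72 to 63 bases and the TGACGT match 56 to 51 bases before the start. Over both strands TGACGT occurred in 3 of the 8 windows (Atf3, Egr2 and Fos) and in 6.56% of the 27025 windows of all genes. The CArG box occurred in 1 of the 8 and in 1.40% of all windows, and TGACATC in 1 of the 8 and in 4.87%. The EGR core GCGGGGG occurred in Fosb, Junb and Socs3 and in 9.40% of all windows, while GCGTGGG occurred in Junb and in 4.20%. Fos also held TATAAA 33 to 28 bases before its start, as 13.0% of all windows did somewhere. No member held TGACTCA, the canonical AP-1 site, within its window, against 4.43% of all windows. The matches are descriptions of these letters and not of bound sites.

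The HF WNTlo gate holds the Sox9 and Krt79 cells of the follicle. Among the basal, suprabasal, HF WNThi and HF WNTlo gates, all 10 genes were highest in the last in both libraries. Their level in HF WNTlo cells was at least 1.5-fold that of basal cells in both libraries for 9 of the 10, against 12.5% of the 10300 genes measured. For all 10 the counting intervals of the 2 gates stood apart in both libraries, as they did for 22.4% of the genes measured. The exception to the 1.5-fold criterion was Jund, at 1.48-fold in control and 1.19-fold in cKO. Egr2 had the widest contrast, 24.5-fold (18.3 to 33.5) in control and 11.4-fold (8.78 to 14.9) in cKO. Socs3 was 5.56-fold and 4.58-fold higher, Jun 3.56-fold and 3.32-fold, Egr1 3.25-fold and 3.92-fold, and Atf3 3.34-fold and 2.93-fold. The median log2 difference of the 10 genes was 1.47 in control and 1.56 in cKO, beside 0.21 and 0.16 over all genes measured.

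**Figure D1:**
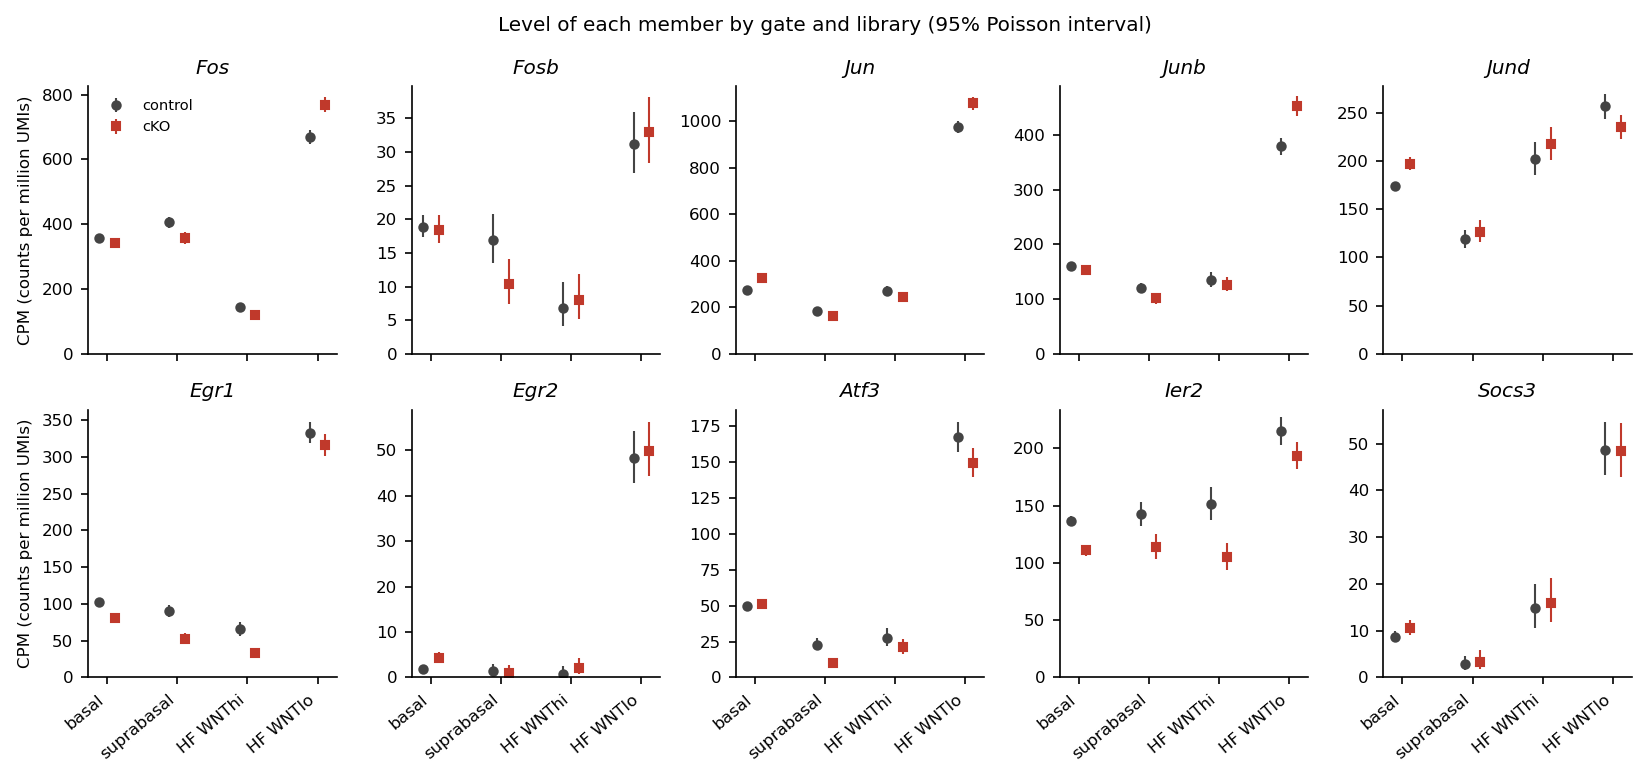
Level of each of the 10 genes (CPM, linear axis from 0) in the basal, suprabasal, HF WNThi and HF WNTlo gates, with control as grey circles and cKO as red squares and bars for the exact 95% Poisson interval of the summed UMIs of 1 library. The HF WNTlo points are the highest in every panel in both libraries, and the Egr2 points of the other 3 gates lie below 5 CPM.

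Fos, the dimer partner that cannot bind DNA alone, stood at 668 CPM in control and 769 CPM in cKO HF WNTlo cells. It followed at 406 and 356 CPM in suprabasal, 356 and 340 CPM in basal, and 143 and 119 CPM in HF WNThi cells. Only in cKO did the intervals of neighbours in this order overlap, between suprabasal and basal cells. Fosb, its close relative, stood at 31.2 and 33.0 CPM in HF WNTlo, 18.9 and 18.5 CPM in basal, 16.8 and 10.4 CPM in suprabasal and 6.85 and 7.99 CPM in HF WNThi cells, the last from 19 and 24 UMIs. Both Fos genes were thus lowest in HF WNThi cells, where Fos was 0.402 of its basal level in control and 0.349 in cKO. For Fosb, however, the suprabasal and HF WNThi intervals overlapped in cKO, and the basal and suprabasal ones in control.

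The 3 Jun genes did not share that order. Jun, the strongest activator of the family, stood at 974 and 1075 CPM in HF WNTlo, 273 and 324 CPM in basal, 271 and 243 CPM in HF WNThi and 185 and 164 CPM in suprabasal cells, with basal and HF WNThi overlapping in control. Junb, which limits keratinocyte growth and cytokine release, stood at 379 and 453 CPM in HF WNTlo, 161 and 152 CPM in basal, 134 and 127 CPM in HF WNThi and 120 and 101 CPM in suprabasal cells. Jund differed less between gates than Jun or Junb, with 257 and 235 CPM in HF WNTlo, 202 and 217 CPM in HF WNThi, 174 and 197 CPM in basal and 119 and 127 CPM in suprabasal cells. Unlike the Fos genes, all 3 were lowest in suprabasal cells in both libraries, although the Junb intervals of suprabasal and HF WNThi cells overlapped in control. In cKO the Jund intervals of HF WNTlo and HF WNThi cells overlapped. In the Merkel gate, 14 control and 12 cKO cells, Jun stood at 1365 and 888 CPM from 113 and 63 UMIs, above its HF WNTlo level only in control. Jund stood there at 568 and 437 CPM from 47 and 31 UMIs, above its HF WNTlo level in both libraries.

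Egr1, a zinc finger factor induced by growth factors through SRF, stood at 333 and 316 CPM in HF WNTlo, 103 and 80.6 CPM in basal, 90.1 and 52.7 CPM in suprabasal and 65.6 and 32.6 CPM in HF WNThi cells, and no neighbours in this order overlapped in either library. Egr2, its paralogue, was concentrated in HF WNTlo cells, with 48.3 and 49.97 CPM there from 288 and 280 UMIs, against 1.97 and 4.398 CPM in basal cells from 54 and 75 UMIs. Suprabasal cells held 8 and 4 Egr2 UMIs and HF WNThi cells 2 and 6. Egr2 was detected in 21.99% of control and 22.5% of cKO HF WNTlo cells after each cell was thinned to 5500 UMIs, against 0.798% and 2.16% of basal cells and 0.746% and 0.673% of HF WNThi cells. The basal, suprabasal and HF WNThi shares overlapped in their binomial intervals in both libraries. Without thinning the share in HF WNTlo cells was 29.9% and 32.0%.

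Atf3, a stress-induced bZIP repressor, stood at 167 and 149 CPM in HF WNTlo, 49.99 and 50.9 CPM in basal, 27.7 and 21.0 CPM in HF WNThi and 22.9 and 9.87 CPM in suprabasal cells. Socs3 stood at 48.7 and 48.4 CPM in HF WNTlo, 14.8 and 15.98 CPM in HF WNThi, 8.75 and 10.6 CPM in basal and 2.84 and 3.38 CPM in suprabasal cells, the last from 15 and 13 UMIs. Ier2, a nuclear protein of the early response, had the flattest profile outside HF WNTlo cells. It stood at 215 and 193 CPM in HF WNTlo, 151 and 105 CPM in HF WNThi, 143 and 114 CPM in suprabasal and 137 and 111 CPM in basal cells, and its 3 lower gates overlapped in a chain in both libraries.

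Against basal cells, 5 of the 10 genes were at least 1.5-fold lower in HF WNThi cells in both libraries (Fos, Fosb, Egr1, Egr2 and Atf3). Of the 9993 genes measured, 5.45% were. Egr2 had 2 and 6 UMIs in HF WNThi cells and counted as measured through its 54 and 75 basal UMIs. Its ratio was 0.366 (0.043 to 1.39) in control and 0.454 (0.162 to 1.04) in cKO. Both intervals included 1, so a lower Egr2 level in HF WNThi cells was not resolved. Socs3 alone was at least 1.5-fold higher in HF WNThi cells, at 1.69-fold and 1.51-fold, beside 5.60% of genes. In suprabasal cells Atf3 and Socs3 were at least 1.5-fold lower in both libraries (15.1% of genes) and none was 1.5-fold higher (8.05% of genes). Between the follicle gates, 8 of the 10 were at least 1.5-fold higher in HF WNTlo than in HF WNThi cells in both libraries, beside 10.1% of genes, the exceptions being Jund (1.27-fold and 1.08-fold) and Ier2 (1.42-fold and 1.84-fold). For Egr1 that ratio was 5.08 in control and 9.68 in cKO, and for Fos 4.67 and 6.47.

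Each follicle gate was divided after its values had been seen, by markers of its stages. Within the HF WNTlo gate, cells with at least 2 Krt79 UMIs and none of Lhx2 (208 control and 195 cKO cells), which mark the upper follicle, were compared with cells that held an Lhx2 UMI (309 and 273 cells), a mark of follicle progenitors. Of the 10 genes, 8 were higher in the Krt79 cells in both libraries with intervals apart, as were 3.39% of the 7073 genes measured. Atf3 stood at 307 and 290 CPM in Krt79 against 108 and 104 CPM in Lhx2 cells, a 2.83-fold and 2.78-fold difference. Egr2 stood at 84.8 and 83.5 CPM against 35.7 and 39.4 CPM, Socs3 at 79.0 and 95.6 CPM against 40.9 and 33.4 CPM, and Fos at 921 and 1125 CPM against 603 and 701 CPM. The exceptions were Jund, at 326 and 231 CPM against 231 and 236 CPM, and Fosb, at 39.5 and 37.0 CPM against 31.7 and 37.7 CPM. Krt79 cells were the shallower, with a median of 7433 and 6893 UMIs against 9824 and 9590, and the part of depth in this contrast was not tested.

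Within the HF WNThi gate, cells with Shh and neither Dkk4 nor Fgf20 (68 and 68 cells), as found past the placode stage, were set beside cells with Dkk4 or Fgf20 and no Shh (76 and 80 cells), as found in early placodes. Jun stood at 510 and 461 CPM in the Shh cells against 186 and 148 CPM, and Egr1 at 139 and 76.5 CPM against 59.4 and 17.5 CPM. These were the 2 of 6 measured members with intervals apart in both libraries, beside 3.67% of the 3187 genes measured. Fos stood at 196 and 203 CPM in Shh cells against 146 and 68.7 CPM, with overlapping intervals in control. Ier2 (158 and 102 CPM against 169 and 116 CPM) and Jund (198 and 200 CPM against 203 and 257 CPM) were not higher in the Shh cells. Along these 4 subsets Jun thus stood lowest in Dkk4 or Fgf20 cells and highest in Krt79 cells in both libraries.

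**Figure D2:**
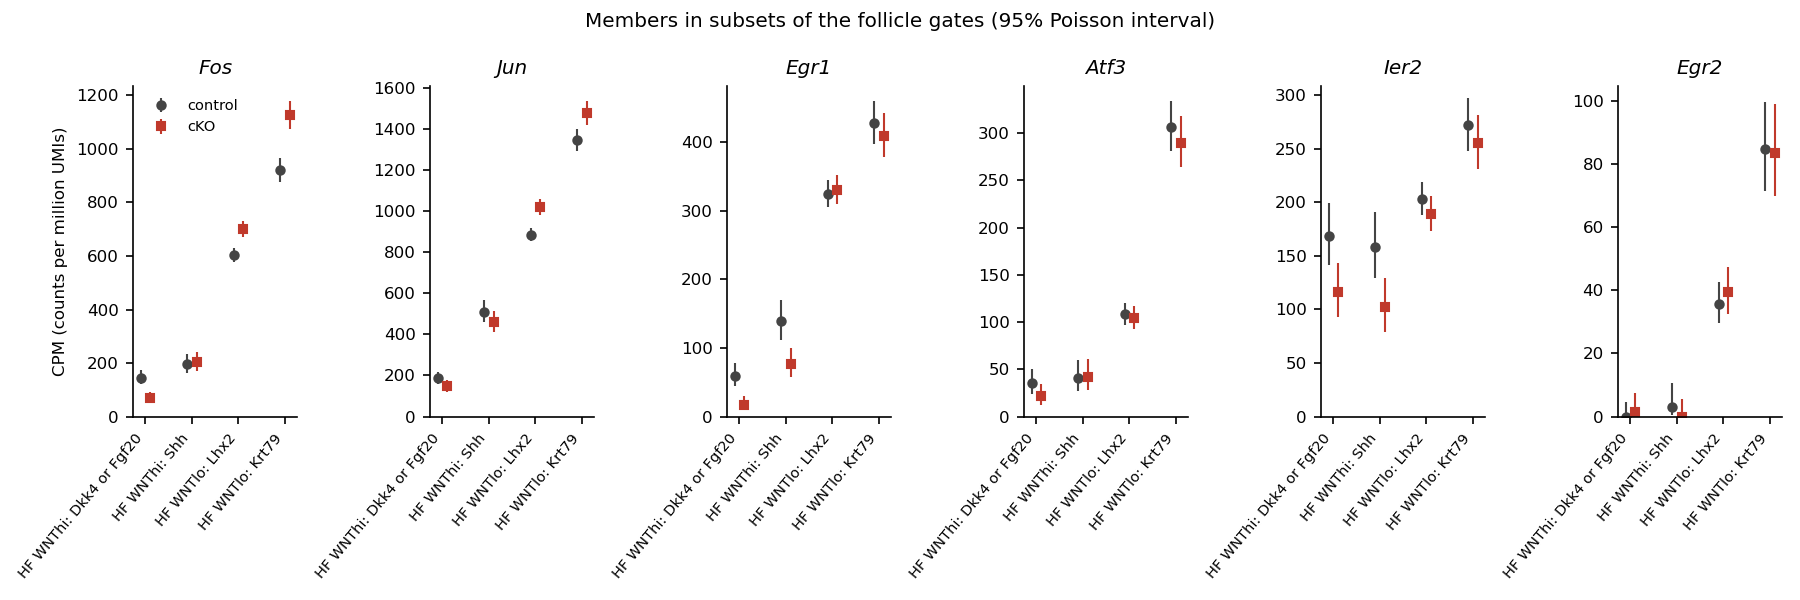
Level of Fos, Jun, Egr1, Atf3, Ier2 and Egr2 (CPM, linear axis from 0) in 4 subsets of the follicle gates, with control as grey circles and cKO as red squares and bars for the exact 95% Poisson interval. Jun stands at 186 and 148 in cells with Dkk4 or Fgf20 and at 1345 and 1476 in Krt79 cells without Lhx2, while Ier2 spans 102 to 272.

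The cKO was then compared with the control within each gate. In basal cells the ratios lay on both sides of 1: Jun stood at 1.19 of control (1.14 to 1.23) and Jund at 1.13 (1.09 to 1.19), while Egr1 stood at 0.786 (0.736 to 0.838), Ier2 at 0.812 (0.768 to 0.858), Junb at 0.945 (0.900 to 0.992) and Fos at 0.956 (0.926 to 0.988). None of the 10 was at least 1.5-fold lower in basal cKO cells, beside 3.19% of the 11008 genes measured. Egr2 alone was at least 1.5-fold higher, beside 6.44% of genes, at 2.23 of control (1.55 to 3.23) on 54 and 75 UMIs. The intervals of Fosb (0.978), Atf3 (1.02) and Socs3 (1.21) included 1. The median log2 ratio of the 10 was -0.00, beside 0.01 over all genes.

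In suprabasal cells the ratios lay lower. Of the 8 members with at least 50 UMIs over both libraries, 3 were at least 1.5-fold lower in cKO, beside 3.87% of the 8288 genes measured, and none was 1.5-fold higher (9.35% of genes). Atf3 stood at 0.431 of control (0.291 to 0.625) on 121 and 38 UMIs, Egr1 at 0.585 (0.494 to 0.691) on 476 and 203 UMIs and Fosb at 0.617 (0.414 to 0.905) on 89 and 40 UMIs. Fos (0.877), Jun (0.886), Junb (0.844) and Ier2 (0.798) also had intervals below 1, which made 7 of 8, beside 13.3% of genes. Jund was the exception at 1.06 (0.944 to 1.20). The median log2 ratio of the 8 was -0.29, beside 0.02 over all genes, while Egr2 (8 and 4 UMIs) and Socs3 (15 and 13 UMIs) were too sparse to measure.

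In HF WNThi cells Egr1 stood at 0.498 of control (0.385 to 0.640) on 182 and 98 UMIs, the only one of 8 measured members past 1.5-fold, beside 3.97% of the 7598 genes measured. Ier2 stood at 0.695 (0.599 to 0.806), Fos at 0.831 (0.718 to 0.961) and Jun at 0.896 (0.808 to 0.993). Atf3 (0.756), Junb (0.941), Jund (1.08) and Socs3 (1.08) had intervals that included 1. None was 1.5-fold higher (7.45% of genes), and the median log2 ratio of the 8 was -0.21, beside -0.00 over all genes.

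In HF WNTlo cells, where the 10 genes were highest among the 4 gates, none passed 1.5-fold in either direction, beside 3.19% of the 9573 genes measured for lower and 4.22% for higher. Junb stood at 1.19 of control (1.13 to 1.26), Fos at 1.15 (1.10 to 1.20) and Jun at 1.10 (1.06 to 1.14). Atf3 stood at 0.893 (0.813 to 0.980), Ier2 at 0.900 (0.829 to 0.977) and Jund at 0.916 (0.850 to 0.987). Egr1 (0.948), Egr2 (1.03), Socs3 (0.994) and Fosb (1.06) had intervals that included 1. Ier2 was the only member whose interval lay below 1 in all 4 gates. For Egr1 the log2 ratio in HF WNThi cells was lower than in HF WNTlo cells by a difference of -0.93 (-1.30 to -0.56, counting error only), and for Atf3 the basal log2 ratio exceeded the suprabasal one by 1.24 (0.70 to 1.78).

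**Figure D3:**
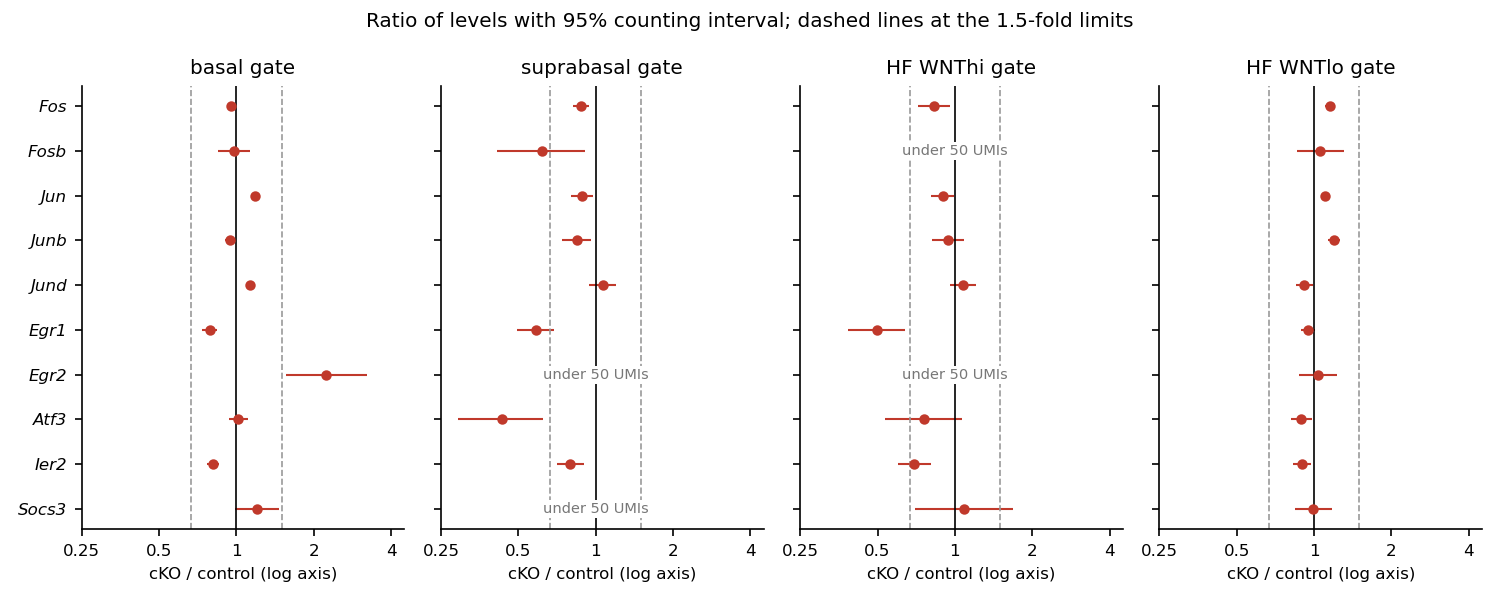
Ratio of cKO to control for each of the 10 genes (log axis) in the 4 gates, with bars for the exact 95% counting interval, dashed lines at 1.5-fold in each direction and no point where a gene had under 50 UMIs over both libraries. Egr1 runs from 0.498 in HF WNThi to 0.948 in HF WNTlo cells, and Egr2 in basal cells is the only measured ratio above 1.5.

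Several of these ratios differed between subsets of a gate, which were also chosen after the values had been seen. Basal cells with a UMI of the proliferation genes Mki67 or Top2a had an Egr1 ratio of 0.707 (0.652 to 0.767), from 100.5 to 71.1 CPM, while basal cells without one had 0.991 (0.888 to 1.11), from 107 to 106 CPM. Egr2 showed the opposite, with 1.08 (0.637 to 1.804) in cells with a proliferation UMI and 5.84 (3.25 to 11.04) in cells without, on 16 and 47 UMIs. Its basal ratio also rested on shallow cells: in the tercile of basal cells with the fewest UMIs Egr2 stood at 3.07 and 13.4 CPM, in the middle one at 2.74 and 1.91 CPM, which is lower in cKO, and in the tercile with the most at 0.934 and 1.75 CPM, and its log2 ratio of 1.16 was 0.21 among cells with at least 2500 genes. In basal cells without any follicle marker UMI Egr2 had 22 and 23 UMIs, Egr1 stood at 0.724 (0.666 to 0.787), Jun at 1.16 (1.11 to 1.21) and Socs3 at 1.55 (1.18 to 2.03). Ungated cells, a larger share of the cKO library, held Jun at 458 and 530 CPM, Egr1 at 160 and 139 CPM and Egr2 at 21.8 and 13.9 CPM, and with them added to the basal gate the log2 ratio of Egr1 was -0.21 in place of -0.35 and that of Jun 0.35 in place of 0.25.

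Suprabasal cells were split by keratin level. Below 20000 CPM of Krt1 and Krt10, Atf3 stood at 0.388 of control (0.238 to 0.614) and Egr1 at 0.551 (0.436 to 0.694). At or above that level Atf3 stood at 0.423 (0.204 to 0.807) on 48 and 12 UMIs and Egr1 at 0.599 (0.465 to 0.766), so both genes were lower in cKO in early and late suprabasal cells. Among HF WNThi subsets, Egr1 stood at 0.295 (0.147 to 0.551) on 49 and 13 UMIs in cells with Dkk4 or Fgf20 and at 0.552 (0.385 to 0.784) in cells with Shh. Fos stood at 0.472 (0.333 to 0.660) in the former and at 1.03 (0.807 to 1.32) in the latter. In HF WNTlo cells with Krt79 and no Lhx2, Junb stood at 1.33 (1.21 to 1.46), Fos at 1.22 (1.14 to 1.31) and Jund at 0.707 (0.618 to 0.808), against 1.02 (0.917 to 1.13) for Jund in the Lhx2 cells.

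Within a gate the members were unequally spread between cells. Each cell was thinned to 5500 UMIs, and the variance over the mean (Fano factor, which is 1 for counting noise alone) was taken over 2756 control and 1713 cKO basal cells. It was 5.60 and 5.43 for Fos, 4.57 and 6.02 for Jun, 3.34 and 4.49 for Atf3, and 2.25 and 3.07 for Junb, beside a median of 1.03 and 1.04 over genes with a mean of at least 0.1 UMIs. Only 0.273% of control and 0.309% of cKO genes had a higher Fano factor than Fos. Jund had the lowest of the 8 members that reached that mean, 1.34 and 1.33, with 6.69% and 6.63% of genes above it. The 10% of basal cells with the most Fos held 49.2% of its UMIs in control and 49.5% in cKO, and for Atf3 they held 80.4% and 88.8%. Fos was detected in 56.7% of thinned control and 57.9% of cKO basal cells, Egr1 in 29.8% (28.1 to 31.5) and 25.5% (23.5 to 27.6). In HF WNThi cells the Fano factor was 5.23 and 2.54 for Fos and 4.64 and 4.16 for Jun. The HF WNThi cell with the most Fos held 25 UMIs in control and 8 in cKO, beside a mean of 0.75 and 0.65. With cells thinned to 3000 UMIs the values were closer for Fos, 2.60 and 2.09, and stood at 3.72 and 2.81 for Jun. The counting intervals of levels and ratios do not cover this spread between cells.

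Summed over the 10 genes, a thinned basal cell held a median of 4 UMIs in both libraries, a suprabasal cell 5 in control and 4 in cKO, an HF WNThi cell 4 and 3, and an HF WNTlo cell 15 in both. Basal cells with none made up 7.47% (6.52 to 8.52) of control and 5.95% (4.88 to 7.18) of cKO, and HF WNTlo cells with none 0.687% and 1.88%. Cells with at least 20 such UMIs made up 6.86% and 6.42% of basal cells, 2.05% and 2.74% of suprabasal cells, 1.87% and 2.02% of HF WNThi cells and 38.1% (34.2 to 42.2) and 40.5% (36.3 to 44.8) of HF WNTlo cells. A high load of these transcripts thus occurred in some cells of every gate and in the largest share in HF WNTlo cells, in both genotypes.

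**Figure D4:**
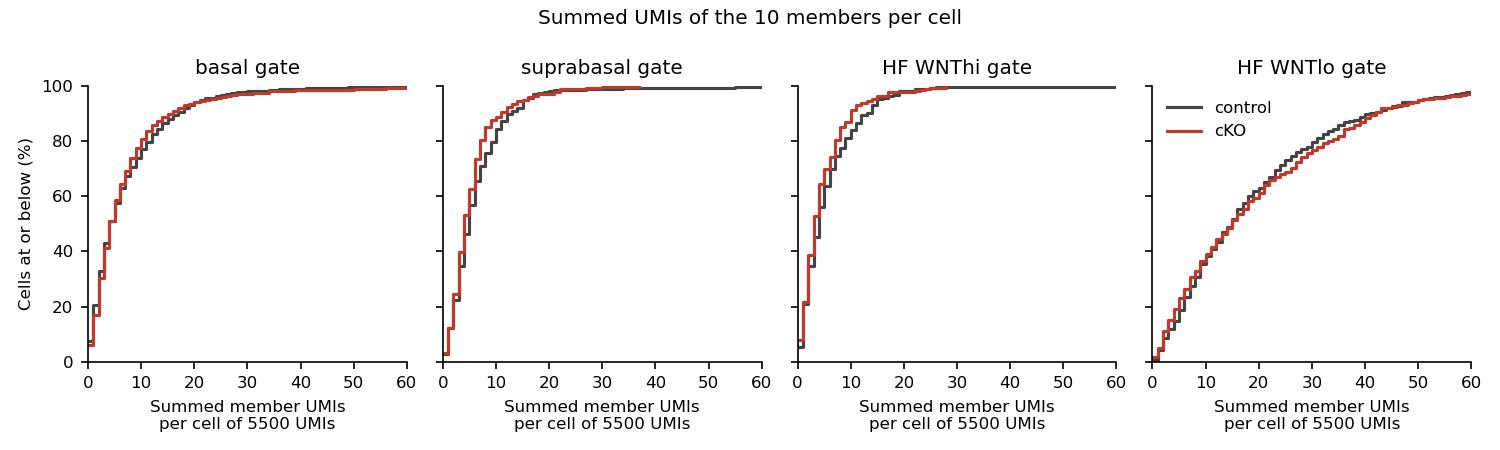
Cumulative share of cells (percent) by the summed UMIs of the 10 genes per cell thinned to 5500 UMIs, with 1 panel for each of the 4 gates and 1 curve for each library. The HF WNTlo curves rise latest, with a median of 15 UMIs against 3 to 5 in the other gates, and the control and cKO curves of that gate run close together.

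The members varied together from cell to cell. Over the 45 pairs the median Pearson r of log2(UMI + 1) was 0.18 in control and 0.21 in cKO basal cells and 0.29 and 0.29 in HF WNTlo cells, given as descriptions because the cells of a library share its preparation. The pair of Fos and Jun had r = 0.55 in control and 0.57 in cKO HF WNTlo cells and 0.46 and 0.44 in basal cells, and Jun and Egr1 had 0.48 and 0.48 in basal cells. In HF WNThi cells the median over pairs was 0.19 in control and 0.11 in cKO.

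**Figure D5:**
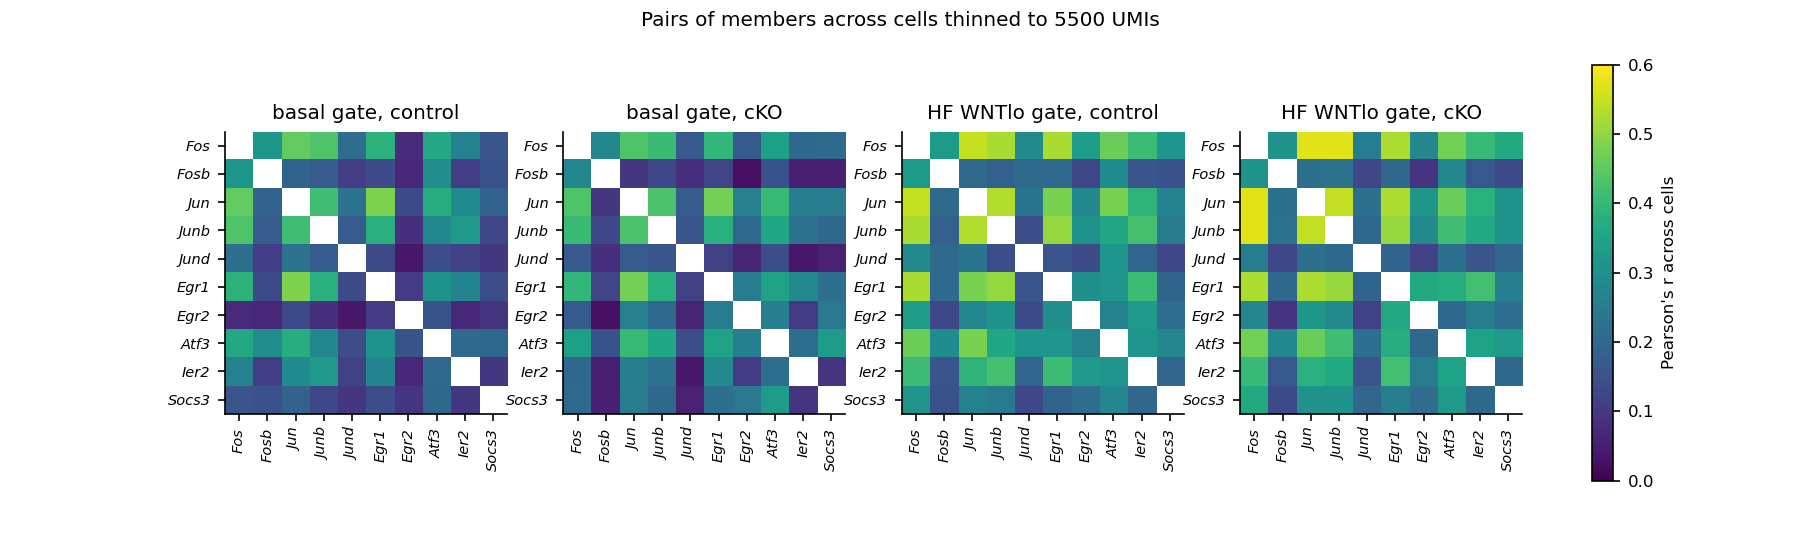
Pearson r between cells of log2(thinned UMI + 1) for each pair of the 10 genes in basal and HF WNTlo cells of each library. Fos with Jun reaches 0.55 in control and 0.57 in cKO HF WNTlo cells, and the lowest of the 45 pairs in basal cells lies at 0.04 in control and 0.02 in cKO.

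The genes outside the 10 whose UMIs followed their sum most closely were sought among genes detected in at least 5% of cells. In basal cells 9 of the top 10 were shared by both libraries: Dusp1, a phosphatase that switches MAP kinases off (r = 0.42 in control and 0.43 in cKO), Zfp36, which promotes decay of AU-rich mRNAs (0.39 and 0.48), Klf6 (0.38 and 0.37), Btg2 (0.32 and 0.45), Cyr61 (0.29 and 0.30), the orphan nuclear receptor Nr4a1 (0.26 and 0.39), Pthlh (0.25 and 0.42), Penk (0.25 and 0.37) and Barx2 (0.18 and 0.31). In HF WNTlo cells 7 were shared, led by Btg2 (0.59 and 0.58), Nr4a1 (0.52 and 0.59), Bhlhe40 (0.46 and 0.53) and Dusp1 (0.46 and 0.41), with Zfp36, Eef1a1 and Pthlh. Suprabasal cells shared Dusp1, Zfp36 and Penk, and HF WNThi cells Dusp1, Nfkbia and Cyr61.

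Other genes of the pathway were taken as lists. Among 15 further AP-1 and bZIP partners, 10 were measured in basal cells. Of these, 1 was at least 1.5-fold lower in cKO and none higher, beside 3.19% and 6.44% of all genes. That gene was Crem, at 0.642 (0.486 to 0.840), and Atf7 followed at 0.874, while Fosl2 stood highest at 1.21 (1.11 to 1.31) and Creb1 next at 1.16. No partner passed 1.5-fold in the other 3 gates, where 3.19% to 3.97% of all genes were lower and 4.22% to 9.35% higher. The list's summed level was 350 CPM in control and 369 CPM in cKO basal cells.

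Of 36 further immediate early genes, 35 were found and 31 were measured in basal cells, and 1 was at least 1.5-fold lower and 4 higher in cKO, a share to be read beside 3.19% and 6.44% of all genes. The matrix protein gene Ctgf stood at 0.557 (0.368 to 0.826) and Gadd45a at 0.749, while Ier5l stood at 1.60 (1.39 to 1.84) and Myc at 1.56 (1.38 to 1.78). The others past 1.5-fold were Cebpb (1.54) and Sgk1 (1.51). The median log2 ratio of the list in basal cells was 0.13. In suprabasal cells 2 of 26 measured were at least 1.5-fold lower, Pmaip1 (0.535) and Klf2 (0.592), and 2 higher, Cyr61 (2.07) and Ier5l (2.38), beside 3.87% and 9.35% of all genes. In HF WNThi cells 2 of 25 were lower, Ctgf (0.504) and Gadd45a (0.656), and 1 higher, Ier5l (1.60), beside 3.97% and 7.45%. In HF WNTlo cells none of 31 was lower and Myc (1.66) was higher, beside 3.19% and 4.22%.

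Among 17 feedback inhibitors of MAP kinase and NF-kB signalling, none of 14 measured passed 1.5-fold in basal cells. Of all genes, 3.19% were lower and 6.44% higher there. The NF-kB inhibitor gene Nfkbia stood at 0.759 (0.726 to 0.793), Spry1 at 0.910, Spry2 at 1.24 and Errfi1 at 1.30. In suprabasal cells Dusp1 stood at 0.576 (0.427 to 0.769) and Dusp6 at 1.65 (1.15 to 2.36). Of the 13 genes of the SOCS family and gp130 signalling, relatives and upstream genes of Socs3, 3 were at least 1.5-fold higher in basal cKO cells, Cish at 1.62 (1.253 to 2.098), Socs5 at 1.59 (1.32 to 1.91) and Socs2 at 1.52 with an interval that included 1 (0.930 to 2.48), beside 6.44% of all genes, and Osmr (0.740) and Lifr (0.753) stood lowest. Socs2 stood at 3.20 (2.29 to 4.57) in HF WNThi cells, where Socs3 stood at 1.08.

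None of 22 measured genes for EGF ligands, MAP kinases and SRF or TCF factors passed 1.5-fold in basal cells, beside 3.19% of all genes lower and 6.44% higher. Elk3 (0.771) and Tgfa (0.804) were lowest and Hbegf (1.42) and Mkl1 (1.24) highest. Of 12 textbook AP-1 targets 4 were measured in basal cells, where Hmox1 stood at 1.83 (1.29 to 2.60), Ccnd1 at 1.45 (1.33 to 1.57), Cd44 at 1.26 and Vegfa at 1.11. In HF WNThi cells the 2 measured targets lay below 1, Ccnd1 at 0.795 (0.662 to 0.955) and Cd44 at 0.906 (0.678 to 1.21). In suprabasal cells 3 of 4 measured targets lay above 1, with a median log2 ratio of 0.30. Of these Vegfa was at least 1.5-fold higher, beside 9.35% of all genes. In HF WNTlo cells 2 of 3 lay above 1, with a median of 0.20.

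Heat shock genes, which dissociation is also known to raise, were all 12 measured in each gate. In basal cells 3 were at least 1.5-fold higher in cKO and none lower, beside 6.44% and 3.19% of all genes, with Hspa1b at 2.095 (1.85 to 2.38), Hspa1a at 1.77 (1.63 to 1.92) and Hsph1 at 1.59, and 11 stood above 1, with Hsp90ab1 at 0.982 and Hspa8 at 1.03 the lowest. Beside a median log2 ratio of 0.01 over all genes in basal cells, the median was 0.23 for the heat shock genes, 0.03 for the AP-1 partners, 0.16 for the feedback inhibitors, 0.39 for the SOCS and gp130 genes, -0.08 for the EGF, MAP kinase and SRF genes and 0.43 for the 4 measured AP-1 targets. The summed level of the heat shock genes was 7436 CPM in control and 7802 CPM in cKO basal cells, 7780 and 7964 CPM in suprabasal, 7400 and 7761 CPM in HF WNThi and 7438 and 7729 CPM in HF WNTlo cells. The part of handling in the ratios of the 10 early genes was not tested, and handling and genotype cannot be told apart with 1 library each.

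The members' level also varied with depth. From the tercile of cells with the fewest to the tercile with the most UMIs, their sum went from 1441 to 1191 CPM in control and from 1682 to 1143 CPM in cKO basal cells, and from 4440 to 2144 CPM and from 4639 to 2465 CPM in HF WNTlo cells. Between the deepest tercile of HF WNTlo cells and the shallowest tercile of basal cells the contrast was narrower than between the whole gates. There Jun stood at 648 and 777 CPM against 325 and 438 CPM, Egr1 at 247 and 252 CPM against 111 and 108 CPM, Fos at 437 and 547 CPM against 420 and 470 CPM, and Ier2 at 163 and 153 CPM against 138 and 133 CPM. In barcodes with 10 to 100 UMIs, which hold free RNA, Fos stood at 228 and 273 CPM, Jun at 158 and 219 CPM, Egr1 at 52.9 and 60.1 CPM and Egr2 at 4.86 and 5.10 CPM. From Krt10 the share of free RNA in the UMIs of the basal and follicle gates was at most 6.11% to 7.75%, a bound that suprabasal cells, which express Krt10, do not give. The free RNA level of Egr2 rested on 25 and 19 UMIs. In control the Egr2 level of basal cells lay below it, while in cKO their intervals overlapped. Of the basal Egr2 level at most 0.377 and 0.371 CPM could come from free RNA.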

How the data were processed

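Cells of back skin epithelium were profiled as 1 10x Genomics 3′ library per genotype. Per the file headers and the submitters' processing notes, the authors deposited raw UMI counts for all barcodes of each library, made with Cell Ranger 2.0 on a mouse reference; these counts are not normalized. The cells were kept at 1800 genes or more, as in the study's methods, and no deposited annotation of cells was used here. Cell types were rebuilt by gates on marker UMIs, so they may differ from the study's clusters, and 63 control and 55 cKO cells that passed several gates were left out.

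Raw counts were summed over the cells of a gate and scaled to counts per 1000000 UMIs (CPM) with Python 3.11.15, numpy 2.4.6, scipy 1.17.1 and pandas 2.3.3. Levels carry exact Poisson and ratios exact conditional binomial 95% intervals. For ratios of cKO to control a gene counted as measured from 50 UMIs on in the gate, control and cKO added. For comparisons between 2 gates or 2 subsets it needed at least 50 UMIs over both of them in each library apart. The precision follows from 59664869 control and 49755010 cKO UMIs in all barcodes. With 1 library per genotype there was no replicate and no test. For comparisons between cells each cell was thinned to 5500 UMIs and shallower cells were left out (between 5 and 88 per gate and library). No doublet caller was run, and cells with the most UMIs were left out as an alternative. The interval script was tested on simulated data.

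All 10 members are named, and of each other list the 2 highest and 2 lowest basal ratios, the genes past 1.5-fold that are singled out, and the genes among the 10 most correlated with the members in both libraries. The members, lists and subsets were chosen with earlier results of these data known. Alternatives covered scaling, weight of cells, gene minimum, mitochondrial share, free RNA, depth, doublets, cycling cells, gates and the fold for a call. Gene positions come from GENCODE vM21 (GRCm38) and promoter windows from RefSeq (GRCm38.p6), with no window used here for Egr1 and Ier2.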

Additional observations from a re-analysis of the deposited data

Results flagged for a closer look

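4 members had ratios of cKO to control with intervals on opposite sides of 1 in different gates. Fos stood at 0.831 in HF WNThi and at 1.15 in HF WNTlo cells, Jun at 0.886 in suprabasal and at 1.19 in basal cells, Junb at 0.844 in suprabasal and at 1.19 in HF WNTlo cells, and Jund at 0.916 in HF WNTlo and at 1.13 in basal cells. These differences between gates were not tested, because each genotype has 1 library. The intervals cover counting error only and not the spread between cells.

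Barcodes with at least 500 and under 1800 genes, which the comparisons left out, numbered 2851 in control and 3498 in cKO. In them Jun stood at 248 CPM in control and 405 CPM in cKO, a ratio of 1.63 (1.55 to 1.72), against 1.19 in basal cells. Egr2 stood at 2.27 of control (1.35 to 3.96) on 21 and 55 UMIs, Jund at 1.32, Fos at 1.19 and Junb at 1.12, all with intervals above 1. The share of all genes with intervals above 1 was not taken for these barcodes, so the members have no background here. The barcodes were not assigned to cell types.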

How the results depend on the processing

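No paired analysis was possible because each genotype has 1 library. Of the 36 member and gate log2 ratios, 18 kept their sign under all that applied to them, out of 15 other settings and 2 more chosen after seeing the data. The number of members at least 1.5-fold lower in cKO was 1 in HF WNThi cells and became 3 with equal weight for each cell, 3 without the 4% of cells with the most UMIs, 3 with cells thinned to 5500 UMIs, 3 at a smaller fold for a call, 2 with stricter gates and 0 with no gates. In suprabasal cells it was 3 and became 0 with no gates, and in basal cells it was 0 and became 1 at that smaller fold. The share of all genes passing the same rule was taken only for the main setting. The counts under other settings, above all at the smaller fold, thus have no background to be read against. With no gates the median log2 ratio of the members was 0.066 in place of -0.29 in suprabasal and -0.21 in HF WNThi cells, and the Fosb log2 ratio turned from -0.70 in suprabasal cells to 0.016. That alternative pools all kept cells, so it holds a different cell mixture by construction. For the other changes the cause was not tested. Atf3 in HF WNThi cells ranged from a log2 ratio of -1.06 with thinned cells to -0.01 with no gates, and in suprabasal cells from -2.01 without cycling cells to -0.01 with no gates. Egr2 in basal cells ranged from 0.21 with at least 2500 genes per cell to 2.55 in cells without an Mki67 or Top2a UMI. Depth limits Egr2 and Socs3 in suprabasal and Egr2 and Fosb in HF WNThi cells, which had under 50 UMIs over both libraries.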

Other observations

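Cells that passed several gates, which may hold doublets or intermediate cells, numbered 63 in control and 55 in cKO and had Jun at 529 and 599 CPM, between its levels in basal and HF WNTlo cells. Fos stood there at 292 and 397 CPM, a ratio of 1.36 (1.14 to 1.62). In the ungated cells Egr2 stood at 21.8 and 13.9 CPM and Lhx2 at 234 and 118 CPM, above the basal gate for both genes in both libraries.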
